A study of Rattus norvegicus with 8 samples.

Results

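The genes described here are the sorting nexins (Snx), the Vps genes and the Chmp genes of rat hippocampal neurons, 59 of the 26405 genes in each of the authors' deposited tables. They were chosen by the form of the gene symbol in those tables and not by any measured value. They comprise 4 retromer genes (Vps26a, Vps26b, Vps29 and Vps35), 25 sorting nexins, 15 genes of the ESCRT machinery, 6 genes of the HOPS and CORVET tethers grouped with the related Vps33b, 3 of the GARP and EARP tethers, 3 Vps13 genes and 2 others. RNA was sequenced from the axons, and from the soma with surrounding neurites, of embryonic rat hippocampal neurons cultured for 10 to 14 days in microfluidic chambers. The axonal compartment alone received soluble oligomeric Abeta(1-42), or vehicle, for 24 h. The 4 groups were axons Abeta, axons control, soma Abeta and soma control, with 2 samples in each. The strain, and whether duplicates came from separate cultures, are not stated in the labels, so p-values measure only how far these samples spread, which may be technical variation.

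Endosomes are the sorting stations of the cell, and in an axon they also carry receptors over long distances. Retromer, built around a core of Vps35, Vps29 and a Vps26 protein, gathers cargo on endosomes and returns it to the Golgi or the cell surface, and sorting nexins bind endosomal lipids and bend or mark the membrane for it. Retromer is studied in Alzheimer disease because the amyloid precursor protein and its sorting receptor Sorl1 pass through these compartments. ESCRT complexes act the other way: they capture ubiquitinated cargo and pinch it into vesicles inside the endosome for degradation in lysosomes. HOPS and CORVET tether endosomes to their fusion partners, and GARP and EARP tether vesicles arriving at the Golgi or at recycling endosomes.

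No column per sample is present in the tables, and their headers do not name the numerator of the fold change. Genes with a deposited log2 fold change above 0 are therefore described as lying on the positive side, those below 0 on the negative side, and which of these was Abeta is not assigned. The reads of each of the 4 libraries behind a mean were recovered from its 15 significant digits, which gave exactly 1 solution for every one of the 59 genes in both tables. Values per library below are read counts divided by the library's size factor (normalized counts), with 2 libraries on each side, numbered 1 and 2 by falling size factor. Sides without overlap are common in axons. Among all genes with an axonal mean of at least 10, both positive-side libraries were on top in 30.6% and both negative-side ones in 18.9%. The recovered axonal reads of the 59 genes summed to 1264 and 1544 in the positive-side libraries, against 800 and 689 in the negative-side ones. In soma they summed to 15081 and 1132 on the positive side, against 20801 and 1159 on the negative side, so 1 deep and 1 shallow library stood on either side. A single gene of the 59 had between 1 and 296 axonal reads over the 4 libraries, with a median of 65.

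None of the 59 genes differed between the treatments by the authors' test. In axons, 0 of 59 passed the authors' adjusted p under 0.05 (DESeq2), where 23.0% of the 1321 genes with an adjusted p were called, 8.78% with positive and 14.2% with negative fold changes. Only Vps35 and Vps13d had an adjusted p there, since the authors' deposited table gives one only from a mean of 44.8 upward. The count at an unadjusted p under 0.05 was also 0 of 59 in the authors' deposited table, against 4.45% of the 23879 genes with axonal reads. In soma 0 of 59 passed (DESeq2) and 0 of 59 had an unadjusted p under 0.05, where 0% and 0.0105% of the 18995 genes with reads did. The smallest unadjusted p among the 59 was 0.0858 in axons and 0.391 in soma.

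These counts do not show that levels were alike. The median standard error was 0.85 log2 units in axons and 0.52 in soma in the authors' deposited tables. For 0 of 59 genes in axons, and 6 of 59 in soma, did the 95% interval of the fold change lie wholly within a 2-fold difference in both directions. Snx22 was among those 6 on 4 somatic reads in all, so its narrow interval does not show a precise measurement.

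**Figure D1:**
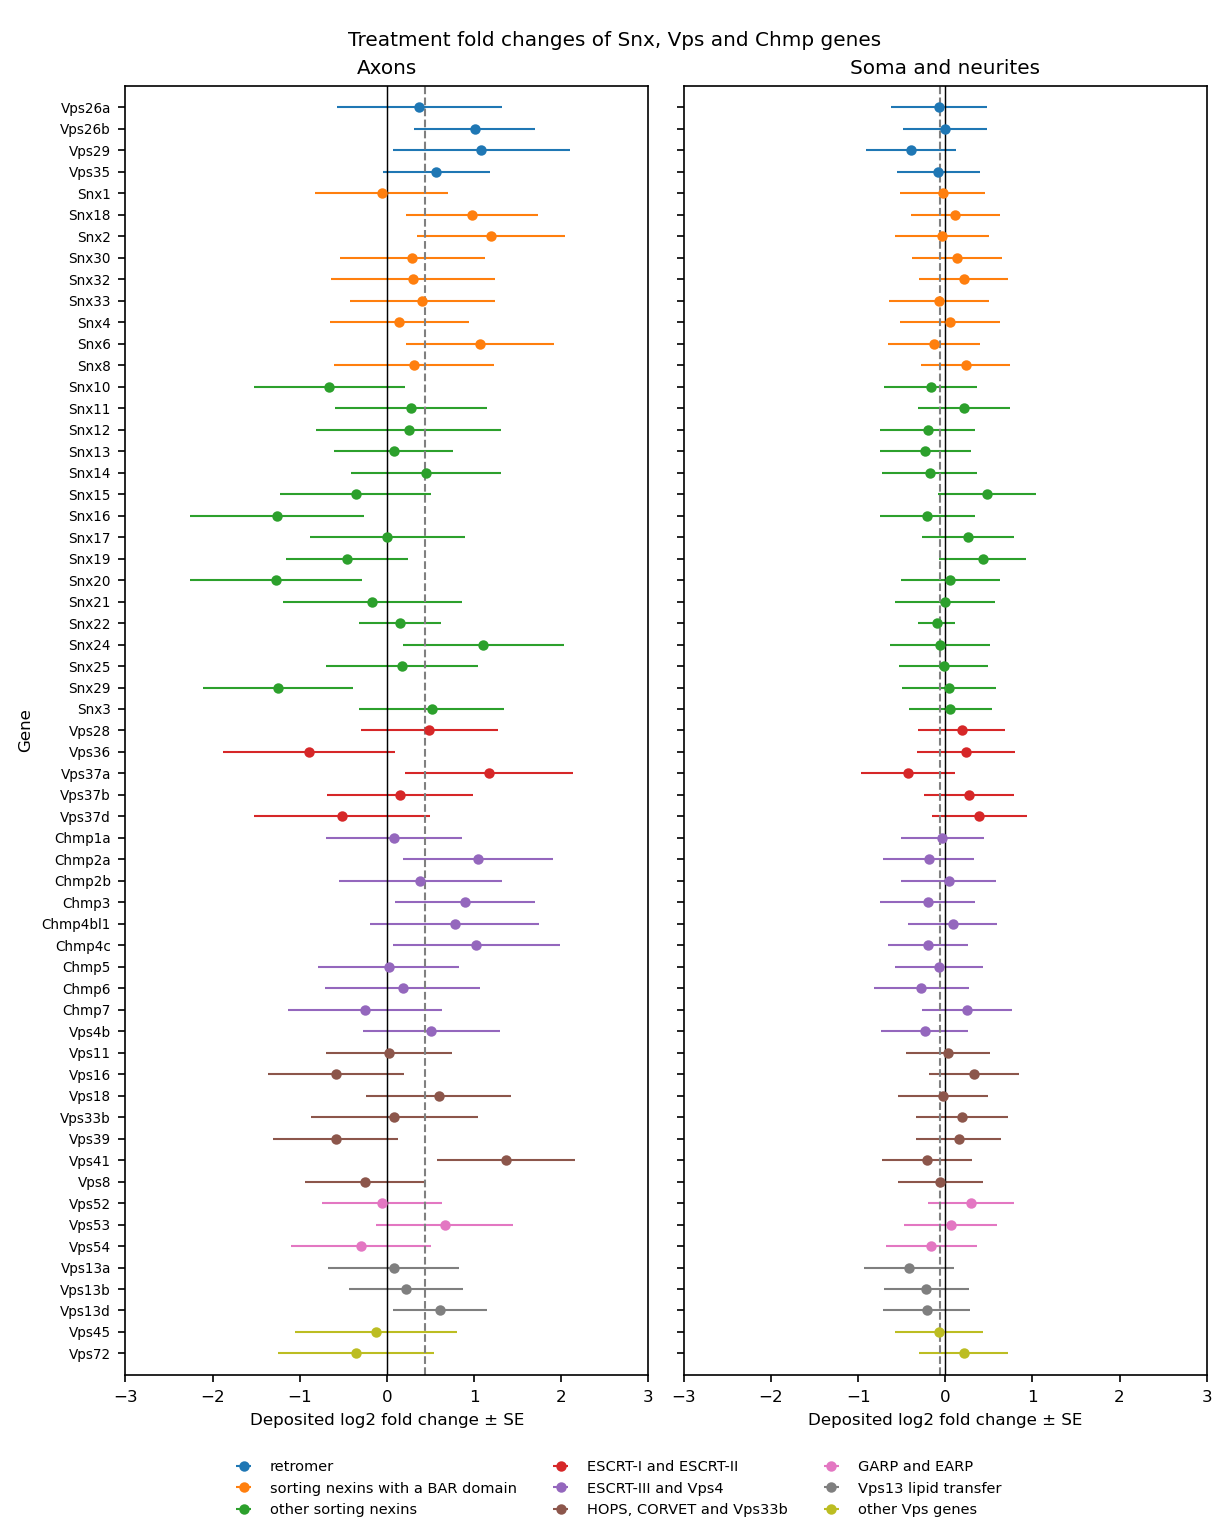
Deposited log2 fold changes (x axis) with their standard errors as bars, for each of the 59 genes (rows, coloured by class), in axons (left) and in soma and neurites (right). The dashed line marks the median of genes whose somatic mean reached 100 (0.44 in axons and -0.06 in soma). All 4 retromer genes lie above 0 in axons, and the somatic values stay between -0.43 and 0.48.

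The retromer core lay on the positive side in axons and near 0 in soma. Deposited axonal log2 fold changes ran between 0.37 and 1.09, with a median of 0.79 over the 4 genes, and somatic ones between -0.39 and -0.0038. Without negative-side library 1, the median axonal log2 ratio of the recovered sides was 1.40, and leaving out the other libraries kept it above 0. Vps35 (ENSRNOG00000017612), the scaffold of the complex, had 38.5 and 73.6 axonal normalized counts in the positive-side libraries, against 33.6 and 39.2 in the negative-side ones. The lower positive-side library stood between the negative-side pair, so the sides overlapped. Its log2 fold change in the authors' deposited table was 0.57 (SE 0.62, adjusted p = 0.563, DESeq2), with a 95% interval from -0.64 to 1.77. Vps26b, one of the arrestin-like subunits that bind cargo adaptors, had 38.5 and 43.0 normalized counts on the positive side, against 23.1 and 13.5 on the negative side. The sides did not overlap, and the authors' deposited table gives a log2 fold change of 1.01 (SE 0.69, unadjusted p = 0.145) and no adjusted p.

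Vps26a, the paralogue of Vps26b, had 6.05 and 16.4 normalized counts on the positive side, against 11.6 and 4.05 on the negative side, which overlapped. Vps29, which holds the other end of the Vps35 scaffold, was the scarcest of the 4 in axons, with 14 and 10 reads against 4 and 1, or 10.6 and 7.83 against 4.20 and 1.35 normalized counts. All positive-side values of Vps29 were above all negative-side ones, on 29 reads in all. The log2 fold changes of Vps26a and Vps29 in the authors' deposited table were 0.37 (SE 0.95) and 1.09 (SE 1.02).

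Summed over the 4 genes, retromer had 93.7 and 141 axonal normalized counts in the positive-side libraries, against 72.5 and 58.1 in the negative-side ones. In soma the sums were 802 (deep) and 556 (shallow) on the positive side, against 975 (deep) and 491 (shallow) on the negative side, so the sides overlapped and the deep libraries were the higher ones. Vps35 alone had 313 and 269 somatic normalized counts on the positive side, against 411 and 210 on the negative side, and Vps26b had 326 and 202 against 336 and 194. Within the deep pair the median log2 ratio of the 4 genes was -0.33, and within the shallow pair it was 0.21.

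Sorting nexins with a BAR domain, a membrane-curving module, had 8 of 9 axonal fold changes above 0 and a median of 0.31. Of the 9, 3 lay above 0.44, the shift of genes whose somatic mean reached 100. In this class only Snx4 (103) reached that somatic mean. The median log2 ratio of recovered sides was 0.71 without positive-side library 1, 0.70 without negative-side library 1, 0.64 without negative-side library 2 and 0.28 without positive-side library 2, against 0.39 with all 4. They share with retromer the task of forming transport tubules. Snx2 and Snx6, partners in the heterodimers that pull retromer cargo into tubules, stood at 1.19 (SE 0.85) and 1.07 (SE 0.85) in the authors' deposited table, while their partner Snx1 stood at -0.06 (SE 0.76). Snx2 had 21.9 and 22.7 axonal normalized counts in the positive-side libraries, against 11.6 and 4.05 in the negative-side ones, with no overlap. Snx1 had 25.7 and 14.1 on the positive side, against 18.9 and 23.0 on the negative side, with one positive-side library above and the other below both. Summed over the class, the sides did not overlap, at 150.4 and 192.5 axonal normalized counts on the positive side, against 110.3 and 112.1 on the negative side. This was not particular to the class. Sums of retromer, both ESCRT classes and the Vps13 genes were also higher on the positive side without overlap. Those of the other sorting nexins, HOPS with CORVET and Vps33b, GARP with EARP, and the other Vps genes overlapped. Summed over all 59 genes the sides did not overlap, at 955 and 1208 against 840 and 931. Snx18, which acts in endocytosis and autophagosome formation, had 21.9 and 40.7 against 9.45 and 18.9 normalized counts, again without overlap.

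Snx4, which recycles receptors out of early endosomes and works with Snx7 or Snx30, was nearly level between the sides in axons. It had 17.4 and 18.0 normalized counts on the positive side, against 12.6 and 18.9 on the negative side, from 72 reads in all. The positive-side pair lay within the range of the negative-side pair. Its log2 fold change in the authors' deposited table was 0.14 (SE 0.80, unadjusted p = 0.858) with a 95% interval from -1.42 to 1.71, which includes a 2-fold difference either way. In soma Snx4 stood at 0.05 (SE 0.57) in the authors' deposited table, with 172 (deep) and 40.4 (shallow) normalized counts on the positive side, against 174 (deep) and 25.0 (shallow) on the negative side. The depths, not the sides, separated these values: the log2 ratio of deep over shallow libraries was 2.37, the highest of the 59 genes, and 0.273% of the 2564 genes whose somatic mean reached 100 and recovered reads had a higher one. The part of depth in the somatic result of Snx4 was not tested.

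The other 16 sorting nexins were spread on both sides in axons, 9 of 16 above 0, with a median of 0.04, and the median log2 ratio of recovered sides was below 0 when any single library was left out (lowest -0.29). Snx3, a small sorting nexin that recruits retromer to Wntless and other cargo, had 22.7 and 29.7 normalized counts on the positive side, against 3.15 and 31.1 on the negative side, which overlapped (0.51, SE 0.84 in the authors' deposited table). Snx29 had the lowest fold change among those with an axonal mean of at least 10, with 6.80 and 6.26 normalized counts on the positive side, against 13.7 and 25.7 on the negative side. The sides of Snx29 did not overlap, and the authors' deposited table gives -1.25 (SE 0.86, unadjusted p = 0.148). Snx16, which binds early and late endosomes, also lay on the negative side at -1.26 (SE 1.00) on 28 reads, and Snx24 at 1.11 (SE 0.93) on 47 reads, in the authors' deposited table. Snx17, a recycling adaptor for Lrp1 and integrins, stood at 0.01 (SE 0.89) there.

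**Figure D2:**
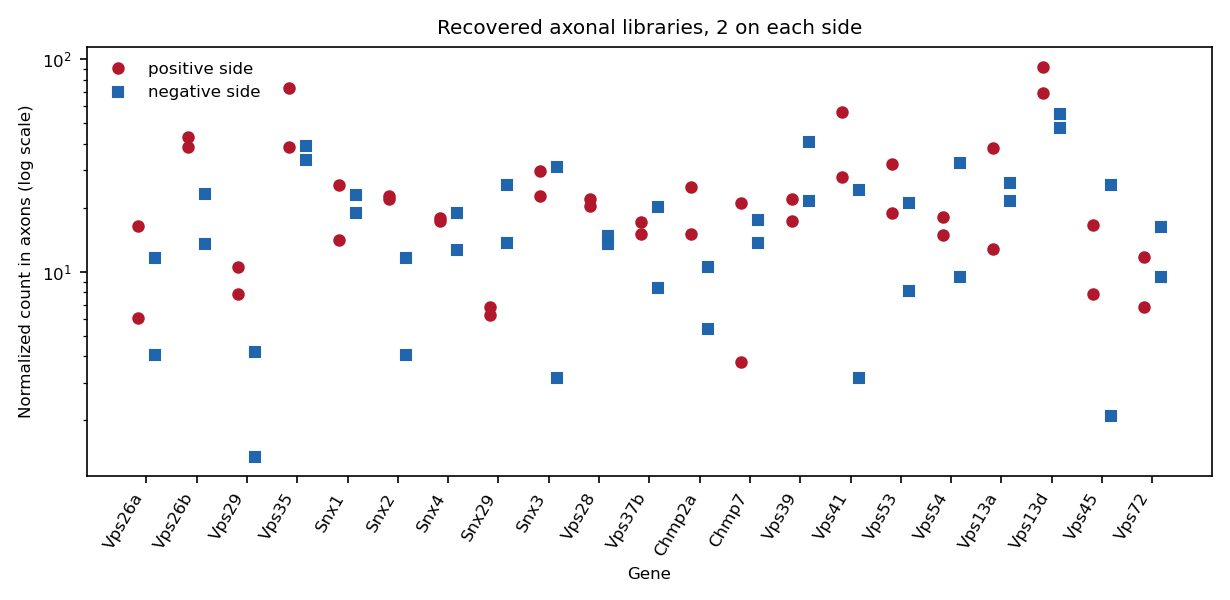
Normalized counts (log y axis) in the 4 recovered axonal libraries for the 21 genes given per library by rule, positive-side libraries as red circles to the left of negative-side ones as blue squares. Vps26b, Vps29, Snx2, Vps28, Chmp2a, Vps41 and Vps13d have both red circles above both blue squares, Snx29 has both below, and the other genes overlap. The highest and lowest fold changes of each class were picked for this panel, so separated sides partly follow from that choice. Of all genes with an axonal mean of at least 10, 30.6% had the positive side on top and 18.9% the negative side.

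ESCRT genes were read from few axonal counts, with axonal means from 1.33 to 19.0. In ESCRT-III, the filament that cuts vesicles from the membrane, and its disassembly ATPase Vps4b, 9 of 10 genes lay above 0 in axons (median 0.45), 5 of 10 above the shift of 0.44, and 3 of 10 above 0 in soma (median -0.13). In this class only Chmp1a and Chmp2a reached the somatic mean of 100 from which that shift was taken. The axonal median was 0.18 over the 7 genes whose axonal mean reached 10. All 10 genes of the class summed to 137 and 164 axonal normalized counts on the positive side, against 98.7 and 115 on the negative side, without overlap. Chmp2a, a late subunit that recruits Vps4, had 15.1 and 25.0 axonal normalized counts in the positive-side libraries, against 10.5 and 5.40 in the negative-side ones, with no overlap. It stood at 1.05 (SE 0.86) in axons and -0.19 (SE 0.52) in soma in the authors' deposited tables. Its paralogue Chmp2b, mutated in a human frontotemporal dementia, stood at 0.39 (SE 0.94) in axons there, on 41 reads. Chmp7, which brings ESCRT-III to the nuclear envelope, was the lowest of the class, with 3.78 and 21.1 against 13.7 and 17.6 normalized counts, which overlapped. Chmp4bl1 may share reads with its near copy Chmp4b, and Chmp5 and Chmp6 have pseudogenes in RefSeq, so their values are uncertain.

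The 5 genes of ESCRT-I and ESCRT-II, which collect cargo upstream of ESCRT-III, were on both sides in axons. Vps28, the core subunit of ESCRT-I, had 20.4 and 21.9 normalized counts on the positive side, against 14.7 and 13.5 on the negative side, without overlap (0.49, SE 0.79 in the authors' deposited table). Vps37b, one of the exchangeable ESCRT-I subunits, had 15.1 and 17.2 against 8.40 and 20.3, with overlap. Its relatives Vps37a and Vps37d stood at 1.17 (SE 0.96) and -0.51 (SE 1.01), and the ESCRT-II subunit Vps36 at -0.90 (SE 0.99), in the authors' deposited table, with 44, 26 and 33 reads over the 4 libraries, in that order.

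Vps41, a HOPS subunit also needed for regulated secretory granules, had the highest axonal fold change of the 59 genes. It had 28.0 and 56.3 axonal normalized counts in the positive-side libraries, against 3.15 and 24.3 in the negative-side ones, where the low value was 3 reads. The sides did not overlap, at 1.36 (SE 0.79, unadjusted p = 0.0858) in the authors' deposited table, and in soma it stood at -0.21 (SE 0.52). Without the negative-side library of 3 reads the log2 ratio of its sides was 0.77, and without the other negative-side library it was 3.38. Its HOPS partner Vps39 lay on the other side, with 17.4 and 21.9 normalized counts on the positive side, against 41.0 and 21.6 on the negative side, which overlapped (-0.59, SE 0.72 in the authors' deposited table). Of the 6 HOPS and CORVET genes, 3 lay above 0 in axons, with a median of -0.11. With Vps33b, a paralogue of the HOPS subunit Vps33a that works in a separate complex, 4 of 7 lay above 0 and the median was 0.03, which ran from -0.32 to 0.55 as single libraries were left out. In Vps8, the CORVET-specific subunit, both negative-side libraries were the higher ones, with 28.0 and 23.5 against 30.5 and 32.4 normalized counts.

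Of the 3 GARP and EARP genes 1 lay above 0 in axons, and Vps53 and Vps54, both GARP subunits, overlapped between the sides. Vps53 had 18.9 and 32.1 normalized counts on the positive side, against 21.0 and 8.10 on the negative side, and Vps54 had 18.1 and 14.9 against 32.6 and 9.45. The Vps13 proteins, which move lipids between organelles, had the highest axonal mean of the set in Vps13d (66.1), which acts at mitochondria. Vps13d had 69.5 and 92.3 against 47.3 and 55.4 normalized counts with no overlap, at 0.61 (SE 0.54, adjusted p = 0.465, DESeq2) in the authors' deposited table. Vps13a, the chorea-acanthocytosis gene in humans, had 12.8 and 38.3 against 26.3 and 21.6 normalized counts, the positive-side libraries lying on either side of the negative-side pair.

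Vps45, a partner of endosomal SNARE proteins, had 16.6 and 7.83 normalized counts on the positive side, against 2.10 and 25.7 on the negative side. Vps72 shares only the name: it is a chromatin protein of the nucleus, and it had 6.80 and 11.7 against 9.45 and 16.2 normalized counts in axons. In both the sides overlapped.

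**Figure D3:**
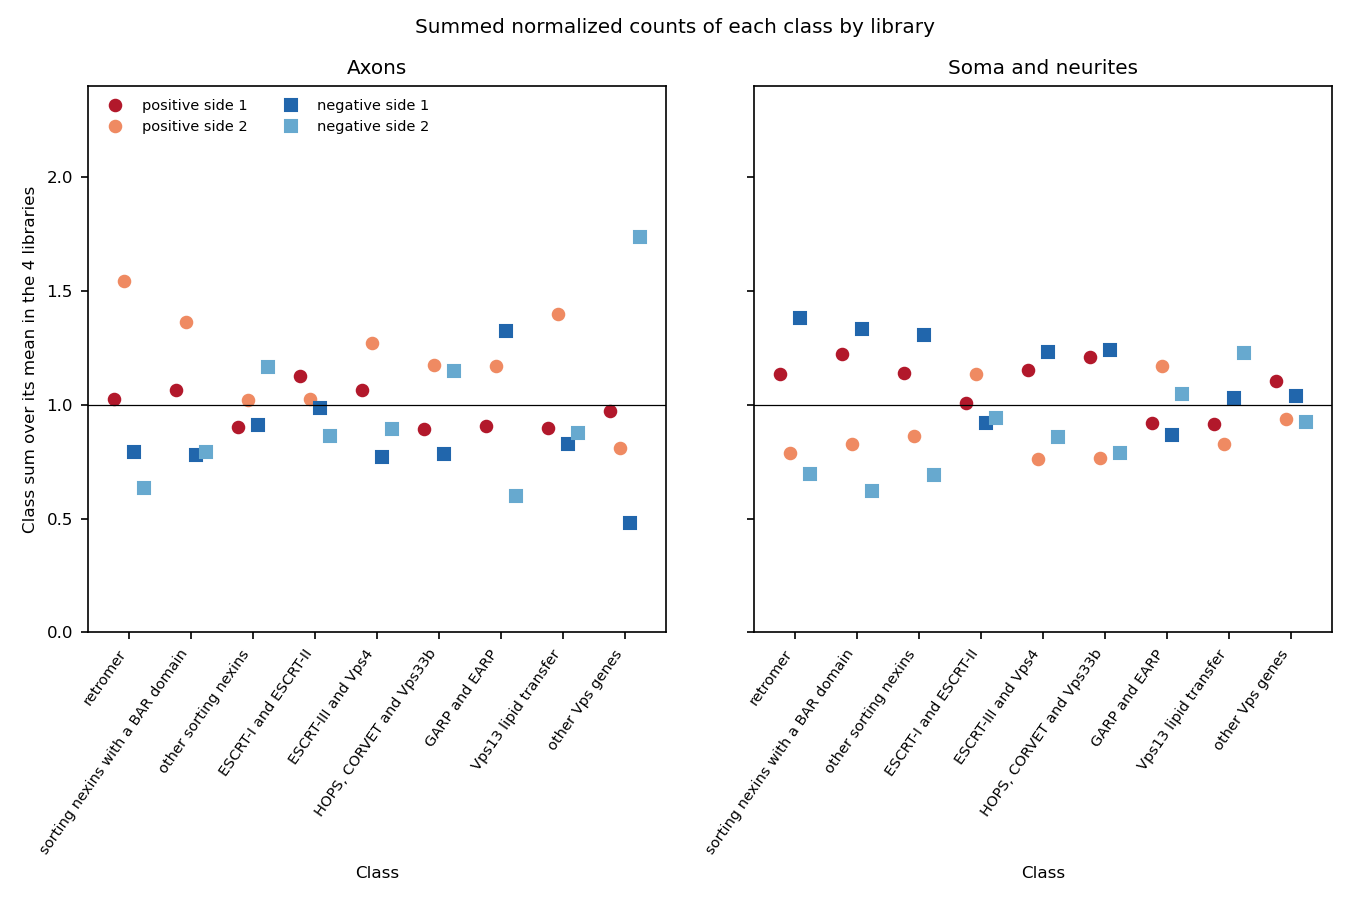
Summed normalized counts of each class in each library, divided by the mean of the 4 libraries (y axis), in axons (left) and in soma and neurites (right), positive-side libraries as circles and negative-side ones as squares. In axons the retromer sums are 93.7 and 141 on the positive side, against 72.5 and 58.1 on the negative side. In soma the deep libraries (number 1 of each side) are the higher ones for retromer, both groups of sorting nexins and ESCRT-III with Vps4. They are also higher for the HOPS, CORVET and Vps33b genes and the other Vps genes.

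Over the whole set, 41 of 59 axonal fold changes lay above 0 and the median was 0.18 in the authors' deposited table, against a median of -0.13 over all genes with axonal reads. Above the shift of well-expressed genes lay 20 of 59, or 33.9%, and 22.5% of all genes with axonal reads. Over genes with a symbol, the median rose from -0.43 below a somatic mean of 10 to 0.44 at 100 to 350. All genes are therefore not a like reference for the members. That shift was 0.44, the median axonal fold change of the 2683 genes whose somatic mean reached 100. By this definition 1341 of the 2683 lay above it, and 6 of the 14 members of such a somatic mean did. Among the members with an axonal mean of at least 10, 71.1% lay above 0, against 57.7% of the 8032 genes of such a mean. Relative to the shift, Vps26b, Vps29, Vps35, Snx2, Snx6 and Chmp2a stayed on the positive side, and Vps26a and Snx4 moved to the negative side. For Vps26a (0.37), with a somatic mean of 56.6, the shift is not a like reference. Genes with a symbol and a somatic mean of 30 to 60 had a median of 0.14, and Vps26a lay above that. For the 14 members whose somatic mean reached 100 the median was 0.11, below that of the genes of like abundance.

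Among the 45 members with an axonal mean of at least 10, both positive-side libraries were above both negative-side ones in 13, or 28.9%, against a background of 30.6% of 7851 genes. The reverse was seen in 2, Snx29 and Vps8, or 4.44%, against a background of 18.9%. The first share was close to that of all genes. Where the somatic mean also reached 100, the positive side was on top in 4 of 14 members, or 28.6%, below the background of 48.1%, and the negative side in 1, or 7.14%, with a background of 5.92%; neither difference was tested. In soma, 8 of the 56 members with a mean of at least 10 had both positive-side libraries on top and 2 had both negative-side ones on top, where the backgrounds were 7.42% and 8.26%. The 8 were Snx8, Snx11, Snx17, Snx19, Vps37d, Chmp7, Vps33b and Vps72, named after their values were seen.

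Some markers of other cells differed between the axonal sides. The 11 matched astrocyte markers summed to 3624 and 4075 axonal normalized counts in the positive-side libraries, against 677 and 1132 in the negative-side ones, and 6 of 11 were called on the positive side by the authors' adjusted p (DESeq2). Gfap and Vim were the largest parts of these sums. Of the 11, 9 lay above 0. The other 2 were Slc1a2 (-0.82, both negative-side libraries on top) and Fabp7 (-0.02, sides overlapping). The 7 matched fibroblast markers summed to 350 and 764 against 127 and 136, a sum carried by Col1a1 and Col1a2, while the other 5 lay below 0 and the list's median log2 fold change was -0.15. The 8 microglial markers summed to 59.7 and 29.0 against 99.8 and 149, with 6 of 8 below 0 and Aif1 and Tmem119 above it. Of the 8, 2 had an axonal mean of at least 10 and 0 had an axonal adjusted p. The 8 oligodendrocyte lineage markers summed to 73.3 and 79.0 against 63.0 and 33.8, with 6 of 8 above 0 and 0 with an axonal adjusted p. Sums of the neuronal markers (9 matched) overlapped, at 700 and 840 against 452 and 962. Among them Stmn2 had both positive-side libraries on top and Nefl both negative-side ones. No marker of these lists was listed at 0 in axons. Genes read in axons and not at all in soma (5473) made up 2.80% and 1.25% of the recovered reads in the positive-side libraries, against 5.59% and 4.62% in the negative-side ones. The part of glial RNA or of such background reads in the axonal values of the 59 genes was not tested, and fewer cells of a type and less RNA per cell cannot be told apart in these libraries.

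The axonal and somatic differences were then compared with each other. Of the 59 genes, 0 passed the test of the difference between the deposited fold changes (z test, adjusted over 18406 genes), where 0.0326% of all genes did, and 0 had an unadjusted p under 0.05, against 2.60% of all genes. Vps41 had the smallest p, where axonal minus somatic fold change was 1.57 (SE 0.95, unadjusted p = 0.0965, adjusted p = 1.00). For Vps35 the difference was 0.65 with a 95% interval from -0.88 to 2.17, and for Snx4 it was 0.09 with an interval from -1.84 to 2.02. Vps37a and Vps4b had the positive side on top in axons and the negative side on top in soma: Vps4b had 19.7 and 23.5 against 14.7 and 13.5 normalized counts in axons, and 71.1 and 50.5 against 73.2 and 81.3 in soma. Their differences of 1.60 (SE 1.11) and 0.75 (SE 0.93) did not pass. Vps37a had an axonal mean of only 9.38, with 1 read in negative-side library 1. Both genes were named after their values were seen, and the share of all genes with such opposite sides was not counted.

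Levels in axons were set beside those in soma within each gene, so that gene length cancels. The tables were normalized separately, so the ratio of means is a description only and was not tested. In the 56 members whose somatic mean reached 10, the median axonal mean was 26.5% of the somatic one, against 27.7% over all genes whose somatic mean reached 10. Retromer lay lower, at 16.8% for Vps26a, 15.4% for Vps35, 11.2% for Vps26b and 7.12% for Vps29, the lowest of the 59. Genes with a somatic mean of 100 to 350 had a median log2 ratio of axonal over somatic mean of -2.35, and those of 60 to 100 one of -2.05, over genes with a symbol. On that scale Vps35 (-2.70) and Vps26b (-3.16) stood below the first and Vps29 (-3.81) below the second, and Vps26a (-2.57), with a somatic mean of 56.6, stood below the -1.82 of genes of 30 to 60.

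**Figure D4:**
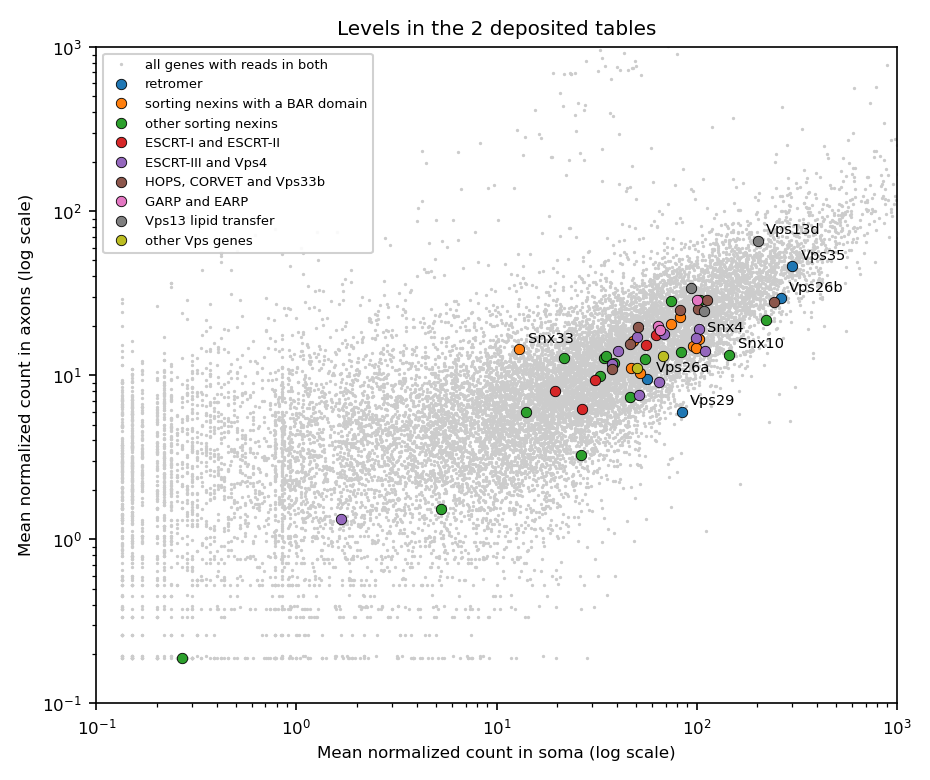
Mean normalized count in axons (log y axis) against that in soma (log x axis), 1 point per gene, for all genes with reads in both tables (grey) and the 59 genes by class (coloured). Vps29 and Snx10 lie low in axons for their somatic level, and Snx33 is the only one of the 59 with a higher mean in axons (14.5) than in soma (13.0).

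Other members low in axons for their somatic level were Snx10, an endosomal regulator of acidification, at a log2 ratio of -3.45, Snx3 at -3.36, Vps41 at -3.13, Snx12 at -3.02 and Chmp2a at -2.97, while Snx4 stood at -2.62. Highest among members with a somatic mean of at least 10 were Snx33, a regulator of endocytosis, at 0.15 and Snx15, an endosomal trafficking protein, at -0.77, with somatic means of 13.0 and 21.7. The Vps13 genes and the GARP and EARP genes had medians of -1.61 and -1.80, and ESCRT-III with Vps4b one of -2.44 over the 9 genes whose somatic mean reached 10. Among genes with no somatic reads, the axonal mean had a median of 1.35 and a 90th percentile of 4.50. Of the 59 genes, 4 were at or below that percentile: Chmp4c (1.33), Snx20 (1.54), Snx12 (3.25) and Snx22 (0.19).

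Genes that work with these complexes were taken from lists of partners. Of 12 ESCRT partners, 1 of which had an axonal adjusted p, 0 were called in axons or in soma (DESeq2), with 11 of 12 axonal fold changes above 0 and a median of 0.48 in the authors' deposited table. Stam, an ESCRT-0 subunit that binds ubiquitinated cargo, stood at 1.35 (SE 0.75), Pdcd6ip (Alix), an ESCRT adaptor, at 1.03 (SE 0.69), and Tsg101, an ESCRT-I core subunit, at 0.18 (SE 0.81) there. Of 9 matched genes of the WASH complex and retromer partners, again with 1 axonal adjusted p, 0 were called in either compartment (DESeq2), with 6 of 9 above 0 and a median of 0.54. Among them Rab7a, the small GTPase that recruits retromer, stood at 0.61 (SE 0.54, adjusted p = 0.464, DESeq2) in the authors' deposited table.

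Cargo receptors included the only call of these lists. Of 10 receptors, 8 lay above 0 in axons and 4 had an adjusted p, and 1 was called there (25.0% of those 4, near the background of 23.0%) and 0 in soma. The call was Lrp1, an endocytic receptor and Snx17 cargo, at 1.10 (SE 0.40, adjusted p = 0.0293, DESeq2) in the authors' deposited table. That call was lost when p-values were adjusted over all genes with reads (adjusted p = 0.387) or over those whose axonal mean reached 10 (adjusted p = 0.148), with Benjamini-Hochberg adjustment of the DESeq2 p-values. Sorl1, the retromer cargo that sorts the amyloid precursor protein, stood at -0.32 (SE 0.59, adjusted p = 0.737, DESeq2) in the authors' deposited table. It had 46.1 and 37.6 axonal normalized counts on the positive side, against 46.2 and 60.8 on the negative side. The negative side was on top by a very small margin, as it was in 18.9% of genes with an axonal mean of at least 10. Its axonal and somatic means were close, at 47.7 and 48.8, whereas Sort1, a sorting receptor of the same family, had 20.7 in axons and 136 in soma.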

How the data were processed

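The submitters' processing notes name DESeq2, TopHat2, SAMtools and Trim Galore without versions; build, annotation and counting program were not given in the sources used here, and no coordinates appear. In each deposited table (1 per compartment), per the file headers, the authors give the mean normalized count over 4 libraries (a signal: reads over size factors), its log2 fold change, the SE, a Wald score, the p-value and the adjusted p-value. Fold changes are used as deposited. They often lie closer to 0 than the recovered ratios, both for genes with few reads (Chmp4c in axons, 1.03 against 1.87) and for some with many. Vps29 in soma, on 804 reads, had -0.39 against -0.53. Per-library reads were recovered as the whole numbers whose sum, each weighted by its library's unit, equals the mean. Units came from genes with a single read, and sides from the sign of the fold change. Below a mean of 350, 100% of values had exactly 1 solution and 0% of shifted decoys had any. The recovery was also tested on simulated data. Recovered libraries cannot be matched to sample titles and enter no test. Size factors were 1.32, 1.28 (positive), 0.952 and 0.740 (negative) in axons and 2.97, 0.297 (positive), 3.74 and 0.320 (negative) in soma. Log2 ratios of recovered sides used a pseudocount of 1.

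The z test of axonal minus somatic fold changes used both deposited SEs, with Benjamini-Hochberg adjustment over 18406 genes (scipy 1.17.1, Python 3.11.15). It was tested on simulated data. All 59 symbols were found in RefSeq (GRCr8), which also named partner genes through Entrez identifiers. Values per library are given by rule for retromer, Snx4, members with an axonal adjusted p, and the highest and lowest axonal fold change of each class among means of at least 10, 21 genes in all. Snx18, Vps8, Vps4b and the receptor Sorl1 are also given per library, outside that rule, after their values were seen. In each of these the axonal sides did not overlap. Others are named where a count or a class needed an example, after their values were seen. Members, classes and lists were chosen with earlier results of these data known. Intervals cover the spread the authors modelled. Alternatives were other adjustments, filters, centrings and each library left out.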

Additional observations from a re-analysis of the deposited data

How the results depend on the processing

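The count of 0 called members held in axons, in soma and for their difference under every adjustment, filter and centring tried. Other adjustments and filters could not have changed it, because an adjusted p is never below the unadjusted one. The smallest unadjusted p among the members was 0.0858 in axons and 0.391 in soma (DESeq2), and 0.0965 for the difference (z test). Only the centrings could have moved the count. Over all genes, the 304 axonal calls became 52 when adjusted over every gene with a p-value and 81 over genes with a mean of at least 10, both of which adjust over more genes than the authors did. The 6 genes whose axonal and somatic fold changes differed became 0 when both tables were centred (1005 at an unadjusted p under 0.05, z test). Centring on genes whose somatic mean reached 100 also took the members above 0 in axons from 41 to 20 (an alternative chosen after seeing the data). It took the members' relative axonal over somatic level from -0.18 to 0.43. The value of -0.18 was relative to the median of all genes with a mean of at least 10 in both compartments. The members were filtered on the somatic mean only, and retromer was not filtered, so that reference was not a like one. With a somatic mean of at least 10 in both sets, the median log2 level was -1.91 for the members and -1.85 for all genes. Leaving out each library in turn, the median axonal log2 ratio of the members ran from 0.15 to 0.46, the somatic one from -0.24 to 0.35, the number above 0 in axons from 36 to 38, and the relative level from -0.35 to -0.12. For retromer these ranges were 0.56 to 1.40 in axons, -0.61 to 0.46 in soma and -1.37 to -1.02 for the relative level, whose value was -1.19, or -0.59 with the other centring. The causes were not tested. For the single classes, 122 values under an alternative lay within the spread between libraries and 32 lay outside it. For the results over all members or all genes, 33 lay within that spread, or within 1.5 times for counts, and 9 lay outside. Partner, receptor and marker lists were not included. No paired analysis was possible because neither the tables nor the recovered libraries carry replicate numbers (the deep and shallow pairs are pairs by depth). No count test was run on the recovered reads, which lack the most abundant genes and were kept out of tests. Precision is limited by the axonal reads, a median of 65 per gene over 4 libraries.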

Other observations

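Another 12 identifiers carry a RefSeq symbol of the same form but another or no symbol in the tables. Of these 0 were called in either table (DESeq2), and 7 of 12 axonal fold changes lay above 0, with a median of 0.21 in the authors' deposited table. Snx27, the sorting nexin that links retromer to receptors with a PDZ motif, stood at 0.09 (SE 0.69) on an axonal mean of 42.5, and Snx5, a partner of Snx1 and Snx2, at 0.40 (SE 0.78) in the authors' deposited table. Vps35l and Vps26c, which form retriever, a relative of retromer, together with Vps29, stood at 1.01 (SE 0.73) and 0.90 (SE 0.89) there. Both positive-side axonal libraries were above both others in 3 of the 7 genes with an axonal mean of at least 10 (Vps35l, Vps26c and Snx5), or 42.9%, against a background of 30.6%. The Vps4 paralogue Vps4a stood at -0.14 (SE 0.72) in the authors' deposited table.

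Between the deep and the shallow somatic libraries, 43 of 59 genes were higher in the deep ones, with a median log2 ratio of 0.47. Of the 11048 genes with recovered reads and a somatic mean of at least 10, 5879 were higher there, with a median of 0.08 (SD 1.03). Of the 2564 whose somatic mean reached 100, 1512 were, with a median of 0.20 (SD 0.99), but only 14 of the 59 reached that mean. The median was 0.85 for retromer, -0.28 for ESCRT-I and ESCRT-II and -0.61 for the GARP and EARP genes, and no cause of this was tested.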
